A study of Mus musculus with 576 samples.

Results

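Expression of 10 genes of the cyclin-dependent kinase engine was described in single bone marrow cells of the mouse: the E cyclins Ccne1 and Ccne2, the A and B cyclins Ccna2, Ccnb1 and Ccnb2, cyclin F (Ccnf), the kinases Cdk1 and Cdk2, and the CDC25 phosphatases Cdc25b and Cdc25c. They were taken by name and Ensembl identifier, as 10 of the 46078 genes in the deposited tables. The rule uses names only, but the genes were chosen with earlier results of these data known. The cells were sorted as CD150+CD48-cKit+Sca1+, a surface phenotype labelled long-term hematopoietic stem cells, from femurs and tibias. They form 6 groups by treatment (control, or LPS, the endotoxin of Gram-negative bacteria) and by class of a p27 marker (high, low or negative), with 96 cells in each. The sources used here do not state the strain, age or number of animals, the LPS dose and time, or what the p27 marker is. Each group therefore counts as 1 sample, no test between groups was possible, and differences are given as sizes only. Of 576 cells, 547 had at least 50000 reads assigned to genes and were kept: 84 p27 high, 93 p27 low and 95 p27 negative cells of the control, and 93, 90 and 92 of LPS.

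Cyclins are the unstable partners that switch cyclin-dependent kinases on. Cyclin E with CDK2 acts at the start of DNA replication, cyclin A2 with CDK2 and then CDK1 acts through replication and into G2, and cyclins B1 and B2 with CDK1 drive entry into mitosis. CDC25 phosphatases remove the inhibitory phosphates from these kinases, and the inhibitor p27 (gene Cdkn1b) binds cyclin complexes, with CDK2 a main target. Most hematopoietic stem cells of the adult marrow are held in quiescence, a resting state in which the genes of replication and mitosis are little transcribed. In the following, Ccna2, Ccnb1, Ccnb2, Ccnf, Cdk1, Cdc25b and Cdc25c are called the 7 late genes, after their part in late S phase, G2 and mitosis.

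The sorted phenotype was checked first. All 7 genes listed for the stem cell gate, Kit and Ly6a (Sca1) among them, were read in every group, with summed levels of 598 to 1962 CPM (reads per 1000000 gene reads). The p27 negative groups had the lowest sums, 598 CPM in control and 875 CPM under LPS. Of the 4 T cell genes only Lck reached 1 CPM, and Cd79b made up nearly all of the B cell sum. The 6 megakaryocyte genes were all at or above 1 CPM in each group, with sums of 321, 1210 and 1312 CPM in control and 273, 944 and 1027 CPM under LPS, in the order high, low, negative. The 9 erythroid genes summed to 670 CPM in control p27 negative cells and to 70.4 to 321 CPM in the other groups, with 5 to 7 of the 9 at 1 CPM or more. Granulocyte genes summed to 111 to 303 CPM, mainly Prtn3 with Ctsg at 0 throughout, and 3 multipotent progenitor genes to 243 to 601 CPM. Megakaryocyte sums were thus lowest in p27 high cells and close together in p27 low and negative cells, whereas stem cell sums were lowest in p27 negative cells, and the part of these lists in the differences below was not tested. Depth was highest in p27 negative cells: median gene reads of a cell stood at 229696.5, 224003 and 390369 in control and 284633, 287584.5 and 439918.5 under LPS. 

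All 7 late genes were far higher in p27 negative cells than in p27 high cells, in both treatments. In control, 9 of the 10 genes were past 2-fold lower in p27 high than in p27 negative cells, beside 8.47% of 11080 genes with a mean of at least 5 CPM. None was past 2-fold higher, beside 12.5%. Their median difference in log2(CPM + 1) was -3.60, against 0.05 over all of those genes. Under LPS again 9 of 10 were past 2-fold lower in p27 high cells (background 7.32% lower, 11.8% higher), with a median of -3.69. All 10 genes passed the 5 CPM limit, but for several of them the p27 negative groups alone supplied nearly all reads, so counts of genes are a description and not support.

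**Figure D1:**
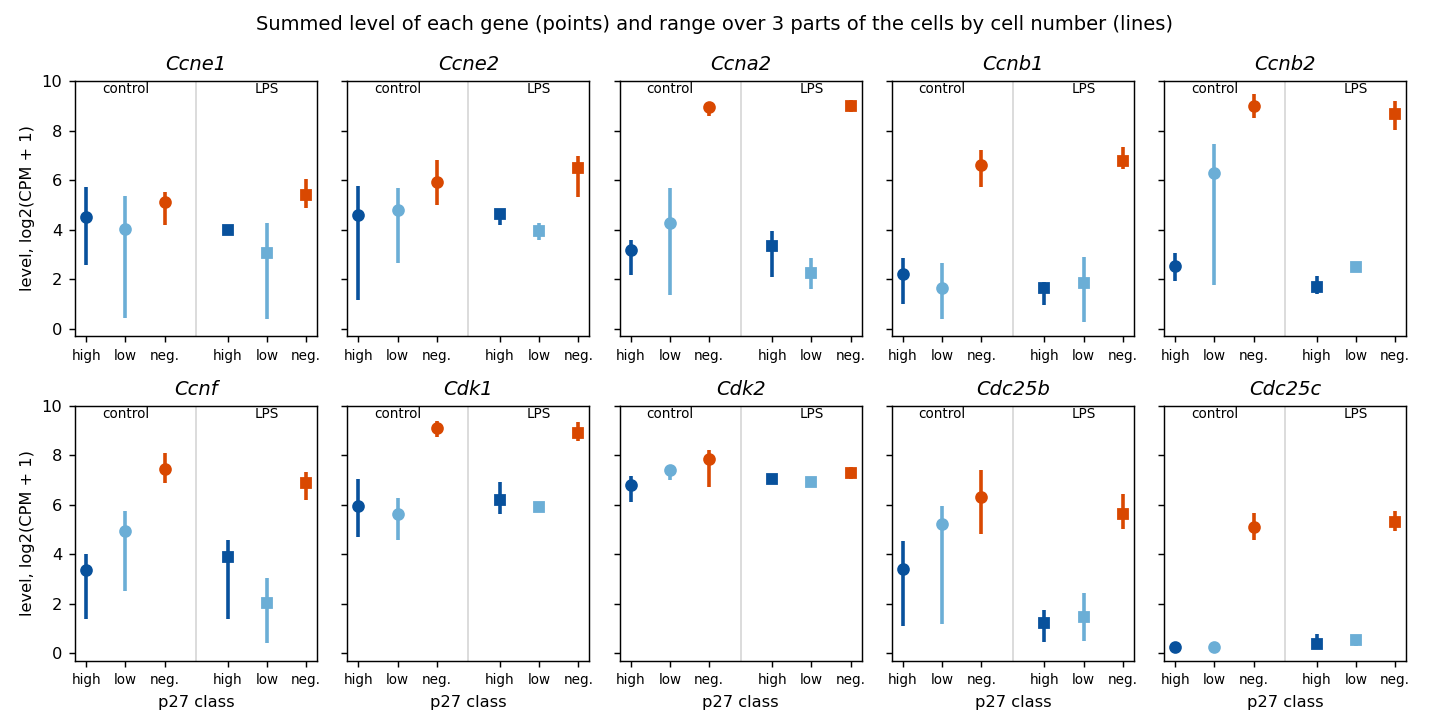
Level of each gene as log2(CPM + 1) in the 6 groups, by p27 class and treatment (circles control, squares LPS; dark blue p27 high, light blue low, orange negative). Points are sums over the kept cells of a group, and lines are the range over 3 parts of the cells by cell number, which are not replicates. For Ccna2, Ccnb1, Ccnb2, Ccnf, Cdk1 and Cdc25c the lines of both p27 negative groups lie above all other lines.

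The cells were also read in 3 parts by cell number (1 to 32, 33 to 64 and 65 to 96), to show how far a level depends on which cells of a group are taken. In 6 genes every part of both p27 negative groups lay above every part of the 4 other groups. These were Ccna2, Ccnb1, Ccnb2, Ccnf, Cdk1 and Cdc25c, as the plot of levels by group shows, and the same held for 217 of the 11080 genes, or 1.96%. In Cdk1 the lowest part of a p27 negative group was at 382 CPM and the highest part of any other group at 130 CPM. In Ccne1, Ccne2, Cdk2 and Cdc25b the parts overlapped.

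Among the cyclins of replication and mitosis, Ccna2 (chr3:36564865-36572150, minus strand, mm10), the only A cyclin measured here, stood at 8.06, 18.4 and 493 CPM in control, given here and below in the order p27 high, p27 low, p27 negative. Under LPS its levels were 9.10, 3.78 and 501 CPM. Both p27 negative groups were thus more than an order of magnitude above the rest, and they lay close to each other (95% Poisson intervals 486 to 500 and 495 to 508 CPM, which cover counting error only). The difference between p27 high and negative cells was -5.77 in control and -5.64 under LPS, in log2(CPM + 1). Per cell, the median was 386 CPM in control and 404 CPM in LPS p27 negative cells, with 72 of 95 and 83 of 92 cells at 5 reads or more. In the 4 other groups 4 to 6 cells of each reached 5 reads.

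Ccnb2 (chr9:70407692-70421547, minus strand), a B-type cyclin, gave the largest difference of the 10 genes between p27 high and negative cells in both treatments. Its levels in control were 4.79, 77.1 and 509 CPM. Under LPS they were 2.22, 4.54 and 407 CPM. Control p27 low cells thus stood well above p27 high cells, whereas both of these LPS groups were under 5 CPM. Of the control p27 low reads 53.1% came from 1 cell, without which the level was 37.8 CPM, and in cells numbered 1 to 32 it was 2.37 CPM and not above that of p27 high cells. The difference of p27 high from negative was -6.46 in control and -6.98 under LPS. In control p27 negative cells 81 of 95 had at least 5 reads, and 3 of 84 did in p27 high cells.

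Ccnb1 (chr13:100778650-100786570, minus strand), the other mitotic B cyclin, was likewise highest in both p27 negative groups. It was read at 3.64, 2.14 and 95.4 CPM in control and at 2.13, 2.63 and 109 CPM under LPS. Differences between p27 high and negative cells were -4.38 and -5.13. Without its top cell Ccnb1 was at 0.73 CPM in LPS p27 low, 1.25 CPM in LPS p27 high and 1.39 CPM in control p27 low cells. Its level is uncertain: 23.4% of the 50-base windows in its transcripts also occur in transcripts of other genes, mostly in the processed pseudogenes Ccnb1-ps (18.9%) and Gm12856 (13.4%). Both pseudogenes carried reads, Ccnb1-ps at 6.78 and 7.997 CPM in the control and LPS p27 negative groups and at no more than 0.18 CPM elsewhere.

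Cyclin F, the F-box protein of an SCF ubiquitin ligase that acts in G2, is the product of Ccnf (chr17:24222198-24251484, minus strand). Its levels were 9.21, 29.998 and 172 CPM in control and 13.7, 3.06 and 117 CPM under LPS. Both p27 negative groups were highest, and the order of p27 high and low cells was opposite in the treatments. The lower groups rest on few cells: 2 to 6 of 84 to 93 cells had 5 reads or more, and the top cell alone held 36.5% to 56.5% of each group's reads. Differences between p27 high and negative cells were -4.08 in control and -3.002 under LPS.

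Promoter sequences are shown for 4 genes. These are Ccnb2, Ccnf and Cdk1, which were among the genes with summed levels highest in both p27 negative groups, and Cdk2, which was read in all classes. RefSeq windows (GRCm38.p6, 250 bases before to 50 after the start) were matched for 7 of the 10 genes: Ccne1, Ccnb1, Ccnb2, Ccnf, Cdk1, Cdk2 and Cdc25b. Ccne1, Ccnb1 and Cdc25b were also highest in both p27 negative groups, and their windows are not printed. Printed are the bases before both the RefSeq start and the first GENCODE base, with matches in capitals. The motifs were the cell cycle homology region CHR (in the form TTTGAA or the form TTCGAA), the CCAAT box (CCAAT) and an E2F core (in the form TTCCCGC, the form TTCGCGC, the form TTGCCGC or the form TTGGCGC), each on either strand. CHR elements are known as binding sites of the DREAM and MuvB complexes, CCAAT boxes of NF-Y and the E2F core of E2F proteins. The windows are Ccnb2 at chr9:70421555-70421804, Ccnf at chr17:24251485-24251659, Cdk1 at chr10:69352939-69353162 and Cdk2 at chr10:128705052-128705301, all on the minus strand, 5′ to 3′.
Ccnb2: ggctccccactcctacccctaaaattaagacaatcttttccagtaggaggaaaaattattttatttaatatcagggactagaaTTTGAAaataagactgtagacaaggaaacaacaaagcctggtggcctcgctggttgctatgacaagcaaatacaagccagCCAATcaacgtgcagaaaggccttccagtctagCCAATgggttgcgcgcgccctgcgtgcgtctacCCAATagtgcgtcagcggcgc
Ccnf: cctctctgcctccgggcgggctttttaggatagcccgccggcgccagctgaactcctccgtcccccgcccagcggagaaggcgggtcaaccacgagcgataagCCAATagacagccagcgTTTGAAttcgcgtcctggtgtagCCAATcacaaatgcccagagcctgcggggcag
Cdk1: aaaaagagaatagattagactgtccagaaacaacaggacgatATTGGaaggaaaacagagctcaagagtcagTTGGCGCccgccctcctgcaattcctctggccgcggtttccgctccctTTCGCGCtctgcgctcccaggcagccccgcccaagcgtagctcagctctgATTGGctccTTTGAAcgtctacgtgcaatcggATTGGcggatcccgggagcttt
Cdk2: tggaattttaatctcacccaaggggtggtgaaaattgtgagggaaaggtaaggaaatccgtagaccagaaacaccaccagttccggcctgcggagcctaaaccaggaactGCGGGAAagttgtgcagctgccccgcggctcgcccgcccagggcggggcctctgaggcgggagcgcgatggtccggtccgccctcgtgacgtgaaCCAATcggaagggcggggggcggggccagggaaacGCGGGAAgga
Over the full windows of 300 bases, a CHR match was present in 4 of the 7 genes (Ccnb2, Ccnf, Cdk1 and Cdc25b) and in 19.2% of all 32851 promoter windows. Ccne1 and Ccnb1, whose windows are not printed, had no CHR match. A CCAAT match was present in 6 of 7, all but Ccne1, and in 37.4% of all windows. Ccnb2 held 3 CCAAT matches on the gene's strand, each 33 bases from the next, and a CHR match at position 5 after the start. Cdk1 and Ccnf each had a CHR match in the last 15 bases before the start, beyond the printed part. An E2F core was present in Ccnb1 (overlapping a CCAAT match), Cdk1 and Cdk2, and in 9.57% of all windows. Cdk2 had 3 E2F core matches, 2 of them printed, and no CHR match. A match is a description of letters and shows no binding.

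Of the kinases, Cdk1 (chr10:69335146-69352938, minus strand), the mitotic kinase, was at 61.4, 48.9 and 545 CPM in control. Under LPS it was at 71.2, 59.7 and 477 CPM. The difference between p27 high and negative cells was -3.13 in control and -2.73 under LPS, smaller than for the A and B cyclins. The p27 high and low groups had 48.9 to 71.2 CPM, and these reads came from a minority of cells: 23 of 84 and 16 of 93 control p27 high and low cells had at least 5 reads, as did 18 of 93 and 15 of 90 LPS cells. In 16, 10, 11 and 12 of these cells, in the same order, Cdk1 was the only late gene at 5 reads or more. No p27 negative cell of either treatment carried Cdk1 alone in this way.

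Cdk2 (chr10:128697939-128705031, minus strand), the partner of cyclins E and A, was read widely in every class. Of the 10 genes it differed least from p27 negative cells in 3 of the 4 comparisons with them, and in the other, control p27 high cells, only Ccne1 differed less. Its levels were 112, 169 and 231 CPM in control and 132, 121 and 155 CPM under LPS. The difference between p27 high and negative cells was -1.04 in control, just past 2-fold, and -0.23 under LPS. In control it was -0.70 when each cell was weighted equally, which is within 2-fold. At least 5 Cdk2 reads were found in 45.2% of control p27 high, 52.7% of low and 65.3% of negative cells, and in 51.6%, 47.8% and 70.7% under LPS. The p27 negative cells were the deepest, and after thinning to 50000 reads the shares with a read were 47.6%, 65.6% and 65.3% in control and 53.8%, 55.6% and 69.6% under LPS.

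Scaled by exon length, Cdk2 was first of the 10 genes in control p27 high, LPS p27 high and LPS p27 low cells (17.9, 21.2 and 19.4 CPM per kb) and Cdk1 second (12.4, 14.4 and 12.1 CPM per kb). In control p27 low cells Ccnb2 was first (50.4 CPM per kb, with 53.1% of its reads from 1 cell), Cdk2 second (27.2) and Cdk1 next (9.92). In both p27 negative groups Ccnb2 was first (333 and 266 CPM per kb), Ccna2 second (121 and 123) and Cdk1 next (110 and 96.7). Cdk2 was there at rank 4 in control and rank 6 under LPS, at 37.1 and 24.9 CPM per kb, so its rank differed more between classes than its level. Cdc25c was last in all 6 groups, at 0.037 to 7.77 CPM per kb.

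Of the cyclins, Ccne1 and Ccne2 differed least from p27 negative cells, in p27 high and in p27 low cells of both treatments. Ccne1 (chr7:38097984-38107534, minus strand) was at 21.6, 15.2 and 33.3 CPM in control and 14.6, 7.31 and 41.01 CPM under LPS. It was the only gene within 2-fold between control p27 high and negative cells (-0.60), and it was past 2-fold lower under LPS (-1.43). Single cells set much of the level: the top cell held 49.5% of Ccne1 reads in control p27 high and 83.3% in control p27 low cells. Without each group's top cell the control difference was -1.32. Ccne1 was found at 5 reads or more in 5 of 84, 2 of 93 and 22 of 95 control cells, and in 8 of 93, 4 of 90 and 25 of 92 LPS cells.

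Ccne2 (chr4:11191351-11204779, plus strand) was read at 22.8, 26.6 and 60.02 CPM in control and at 23.8, 14.3 and 88.5 CPM under LPS. The p27 negative groups were again highest, with differences of p27 high from negative of -1.36 and -1.85. In control the parts by cell number ran from -5.65 to 0.19 and did not keep the direction. LPS p27 negative cells had the highest share of cells with 5 Ccne2 reads, 42.4% (39 of 92, exact 95% interval 32.1% to 53.1% for the drawing of cells), against 33.7% (32 of 95, 24.3% to 44.1%) in control. These intervals overlap.

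The CDC25 phosphatases activate cyclin-CDK complexes. Cdc25b (chr2:131186949-131198497, plus strand), which acts early in mitotic entry, was at 9.58, 36.8 and 79.5 CPM in control. Under LPS it was at 1.35, 1.76 and 47.9 CPM, so the p27 high and low groups were nearly without reads. Single cells held 51.1% and 81.6% of the reads of these LPS groups, which were at 0.67 and 0.33 CPM without them. Differences of p27 high from negative were -2.93 and -4.38. A minority of p27 negative cells carried it, with 27 of 95 control and 28 of 92 LPS cells at 5 reads or more.

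Cdc25c (chr18:34732993-34751533, minus strand), which acts on cyclin B-CDK1, had nearly all of its reads in p27 negative cells. Its reads numbered 4, 6 and 1404 in control and 10, 12 and 1873 under LPS, or 0.18, 0.20, 33.8, 0.30, 0.43 and 38.2 CPM. No cell of the p27 high and low groups had 5 reads, which allows shares of up to 4.30%, 3.89%, 3.89% and 4.02% (upper bounds of the exact 95% interval for control high and low and LPS high and low). In the p27 negative groups 22 of 95 and 25 of 92 cells did. Differences of p27 high from negative were -4.88 in control and -4.91 under LPS.

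The strand setting of the counting is not stated, so reads in exons shared with a neighbour on the other strand could be miscounted. Without regard to strand, such reads could be left out as ambiguous, an entry with 4.28% of all reads in the tables. With a strand setting, some could be assigned to the neighbour. Exons of Ccne2 overlap those of Ints8 over 609 bases, exons of Ccna2 those of Exosc9 over 510 bases and exons of Cdc25c those of Gm3550 over 623 bases. Exosc9, next to the strongly graded Ccna2, was at 68.01 to 92.3 CPM in all 6 groups. Gm3550 was at 5.24 CPM in control p27 negative cells and at no more than 0.69 CPM in the other groups. Overlaps of Cdc25b with Spef1 (92 bases), Cdk2 with Pmel (34 bases) and Ccnf with Mir5134 (8 bases) were shorter. Ccne1, Ccnb1, Ccnb2 and Cdk1 had none.

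**Figure D2:**
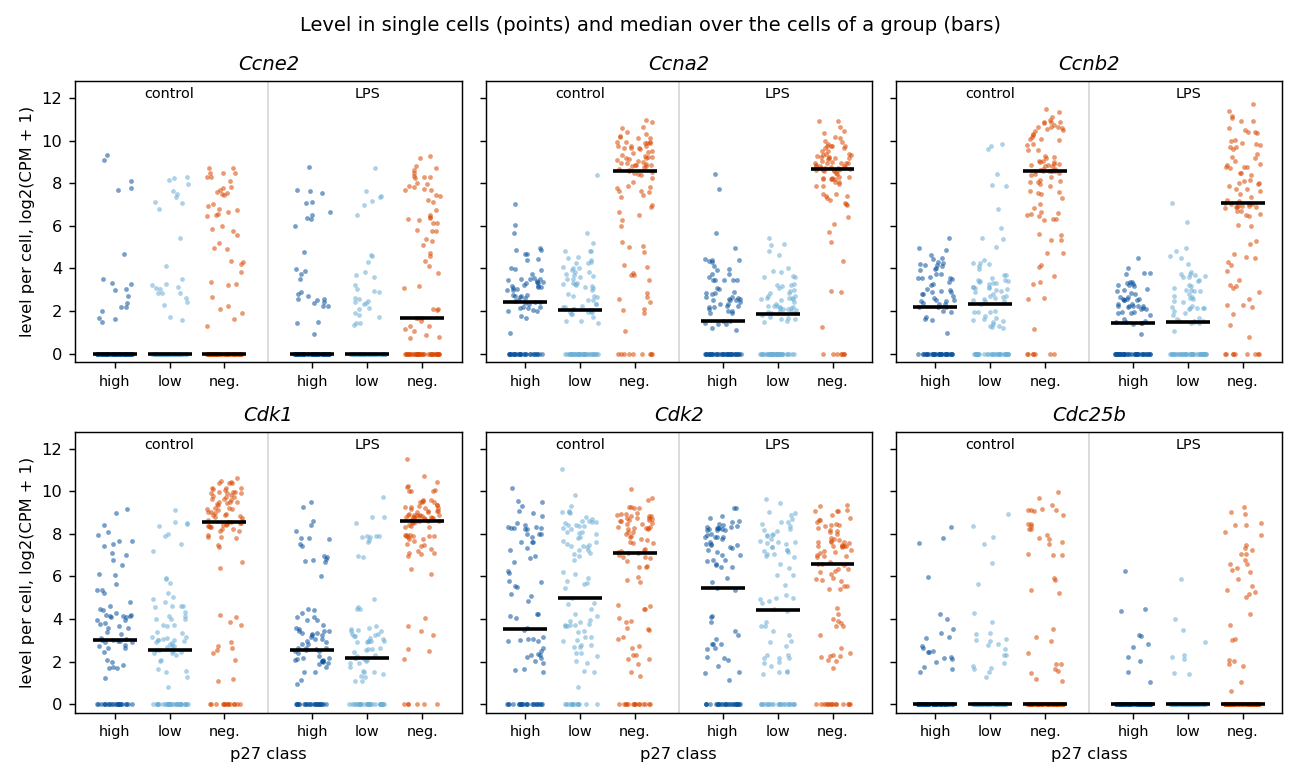
Level of 6 of the genes in each kept cell as log2(CPM + 1), by p27 class and treatment (dark blue p27 high, light blue low, orange negative); black bars are medians over the cells of a group. Ccna2, Ccnb2 and Cdk1 are high in most p27 negative cells and low or absent in most others, Cdk2 is spread from 0 to high in all groups, and Ccne2 and Cdc25b are at or near 0 in the median cell.

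Low read numbers of late genes were common in p27 high and low cells, as the plot of single cells shows. Ccnb2 had at least 1 read in 59.5% of control p27 high cells, yet the median of the cells with a read was 2 reads, against 148.5 reads in control p27 negative cells. Ccna2 had at least 1 read in 65.5% of control p27 high cells, again with a median of 2 reads, against 147.5. For this reason 5 reads were required to count a gene in a cell. The source of the low numbers was not tested.

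By this count the late genes were found together in p27 negative cells and seldom elsewhere. All 4 of Ccna2, Ccnb1, Ccnb2 and Cdk1 reached 5 reads in 43 of 95 control p27 negative cells (45.3%, exact 95% interval 35.02% to 55.8%) and in 42 of 92 LPS p27 negative cells (45.7%, 35.2% to 56.4%). No kept cell of the 4 other groups had all 4, which allows shares of up to 4.30%, 3.89%, 3.89% and 4.02%. With every cell thinned to 200000 reads, which left out 9 to 39 shallower cells a group, the shares were 48.6% and 37.3% in p27 negative cells and 0 in the others. The median cell had 4 of the 7 late genes in both p27 negative groups and 0 in each other group.

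**Figure D3:**
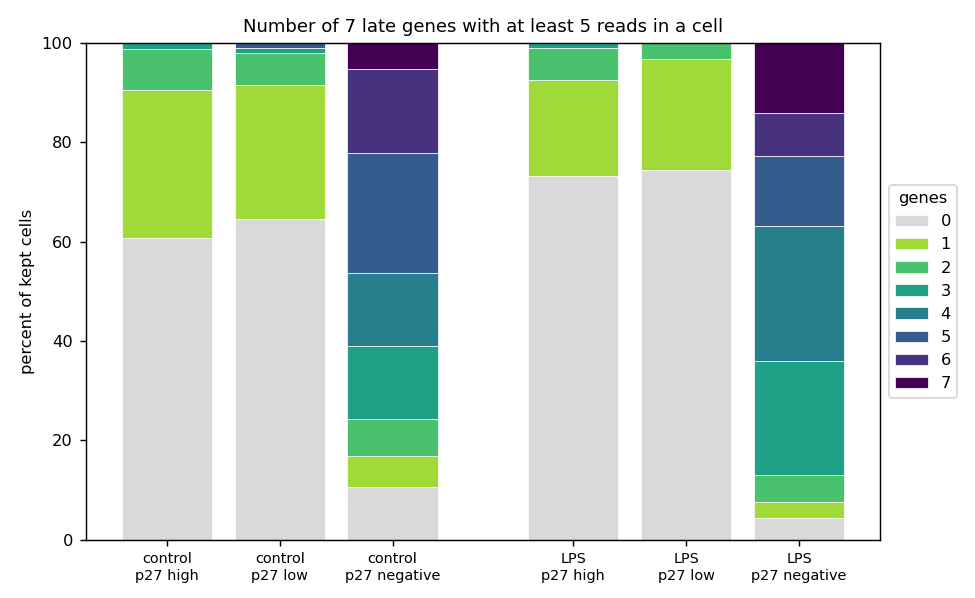
Percent of kept cells with 0 to 7 of the late genes at 5 reads or more, as stacked bars for the 6 groups. Cells with 0 late genes make up 60.7% to 74.4% of p27 high and low cells, 10.5% of control and 4.35% of LPS p27 negative cells.

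All 7 late genes were present in 5 control and 13 LPS p27 negative cells. At the other end, 10 control and 4 LPS p27 negative cells had none of them (10.5%, interval 5.16% to 18.5%, and 4.35%, 1.20% to 10.8%). LPS p27 negative cells were deeper, and these intervals overlap. 1 of the 95 control p27 negative cells had 97.9% of its reads from the mitochondrial genome.

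Most p27 negative cells had a B cyclin, alone or beside an E cyclin. With an E cyclin counted as Ccne1 or Ccne2 and a B cyclin as Ccnb1 or Ccnb2 at 5 reads, 49 control p27 negative cells had a B cyclin only, 33 had both, 3 an E cyclin only and 10 neither. Among LPS p27 negative cells the numbers were 38, 39, 9 and 6. In LPS p27 high cells E cyclins were the more frequent kind, with 15 of 93 cells (16.1%, 9.32% to 25.2%) having an E cyclin only and 3 a B cyclin only. Of those 15 cells 3 also had Ccna2. LPS p27 low cells were similar, with 11 and 3 cells, whereas control p27 low cells had 11 of each. Of 84 control p27 high cells, 5 had an E cyclin only (5.95%, 1.96% to 13.3%), 3 a B cyclin only and 3 both. The E cyclin intervals of control and LPS p27 high cells overlap, and these counts were not matched for depth.

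Across the p27 negative cells of 1 treatment, the late genes went together more than with the E cyclins. These correlations of CPM are descriptions over 95 control and 92 LPS cells, and the cells of a group share 1 sample and differ in depth. Over the 21 pairs of late genes the median Spearman's rho was 0.30 in control (0.06 to 0.65) and 0.33 under LPS (0.15 to 0.57). The highest pair was Ccna2 with Cdk1 in control (0.65) and Ccnb1 with Ccnb2 under LPS (0.57). Over the 14 pairs of a late gene with an E cyclin the median was -0.06 in control (-0.40 to 0.24, the highest Ccne2 with Cdk1) and -0.08 under LPS (-0.44 to 0.11), so the ranges of the 2 kinds of pair overlap in control. Ccne1 and Ccne2 went together, at 0.46 and 0.34. Ccne2 ran against Ccnb2, at -0.40 in control and -0.43 under LPS, and Ccne1 did so at -0.29 and -0.44. Cdk2 went with Ccne1 in control (0.44) and less so under LPS (0.20).

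**Figure D4:**
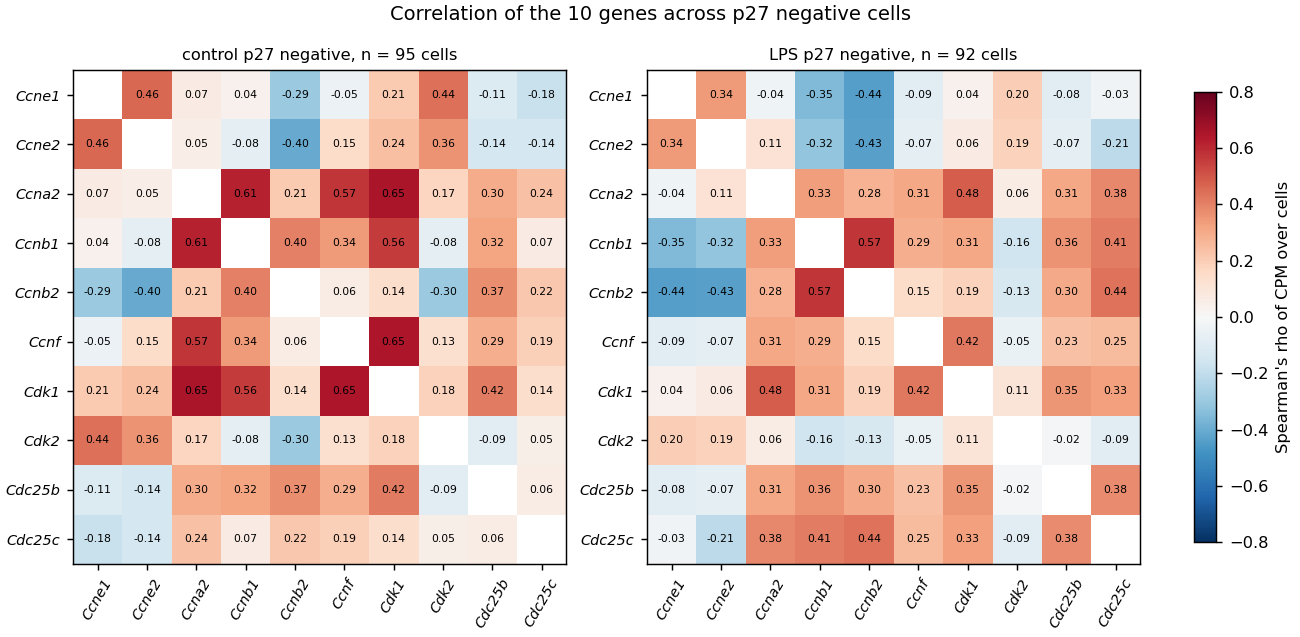
Spearman's rho of CPM between each pair of the 10 genes over control p27 negative cells (left, n = 95) and LPS p27 negative cells (right, n = 92), from blue (negative) to red (positive). Late genes form a mostly red block, from 0.06 to 0.65 in control and from 0.15 to 0.57 under LPS, and the E cyclins are blue against Ccnb2.

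The 3 genes most like each member were taken from 10205 genes read in at least 20% of control p27 negative cells. For Ccnb2 the first was Cenpa, a centromeric histone (rho 0.73), which was also first under LPS (0.75). For Cdk1 and for Ccnf it was Top2a, the topoisomerase of chromosome condensation (0.74 for each, with 0.50 and 0.41 under LPS), followed in each by H2afx. For Ccna2 it was the tubulin Tubb4b (0.71, with 0.48 under LPS), followed by Nusap1 of the spindle (0.68 and 0.52). Ccnb1 went with its pseudogenes Ccnb1-ps (0.84) and Gm12856 (0.74), then with Ccna2 (0.61), at 0.83, 0.84 and 0.33 under LPS.

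Among the genes nearest to the E cyclins were genes of DNA replication. Hells, a chromatin remodeller, was first for Ccne1 (0.57), though only at 0.17 under LPS. Pola1, a subunit of DNA polymerase alpha, and Clspn, a replication checkpoint adaptor, were among the 3 for Ccne2 (0.54 and 0.53). Under LPS these stood at 0.35 and 0.30. The processed pseudogene Gm10169 (0.53) was among the 3 for Ccne1, with 0.21 under LPS. Cdk2 was nearest to Hnrnpab (0.54), Pclaf (0.49) and the pseudogene Gm10087 (0.47), with 0.17, 0.29 and 0.34 under LPS. Cdc25b was nearest to Mki67 (0.52), Cks2 (0.51) and Ckap2 (0.50), with 0.14, 0.33 and 0.31 under LPS. For Cdc25c the 3 nearest genes, Rpusd4 (0.47), Iqgap1 (0.42) and Spty2d1 (0.42), had rho of 0.02, -0.16 and -0.01 under LPS and so did not recur.

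p27 low cells were compared with p27 negative cells next. In control 9 of 10 genes were past 2-fold lower in p27 low cells, all but Cdk2 (-0.45), beside a background of 8.33% lower and 10.1% higher. The median was -2.59. Ccnb1 (-4.94), Cdc25c (-4.86) and Ccna2 (-4.67) differed most, and Ccne1 (-1.08), Cdc25b (-1.09) and Ccne2 (-1.14) were just past 2-fold. These 3 did not keep their direction in all parts: Ccne1 (1.18) and Ccne2 (0.69) were higher in p27 low cells numbered 33 to 64, and Cdc25b (0.27) in those numbered 65 to 96. Under LPS 9 of 10 were again lower, all but Cdk2 (-0.35), beside 9.93% lower and 7.45% higher. The LPS median was -4.46, and Ccna2 (-6.72) and Ccnb2 (-6.20) differed most. In these comparisons p27 negative cells are the shared reference of p27 high and p27 low cells, so the differences are not independent.

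Fewer of the 10 genes were past 2-fold between p27 high and p27 low cells than in either comparison with p27 negative cells, and their levels there rested on few cells. In control 4 of 10 were past 2-fold lower in p27 high cells, Ccnb2 (-3.75), Cdc25b (-1.84), Ccnf (-1.60) and Ccna2 (-1.10), beside 7.47% of all genes. None was past 2-fold higher, beside 9.14%. With each cell weighted equally Ccnb2 (-2.61) alone stayed past 2-fold, and Cdc25b (-0.55), Ccnf (-0.24) and Ccna2 (-0.19) did not. In cells numbered 1 to 32 Ccna2 (2.24) and Ccnb2 (0.17) differed in the other direction. Control p27 low cell number 40, with 1302938 gene reads, held 78.4% of the group's Ccna2 reads, 83.3% of Ccne1, 36.5% of Ccnf, 29.2% of Cdk1, 27.1% of Cdc25b and 21.6% of Ccne2. It was the only kept cell outside the p27 negative groups with 5 late genes, yet it had 0 reads of Ccnb1 and of Cdc25c. Cell number 67 held 53.1% of the group's Ccnb2 reads. Without the top cell of each gene in each group, Ccna2 in p27 low cells was at 4.15 CPM and its difference turned to 0.32, and Ccnb2 was at 37.8 CPM with a difference of -2.81.

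Under LPS no gene was past 2-fold lower in p27 high than in low cells (background 6.25%). Ccnf (1.86) and Ccna2 (1.08) were past 2-fold higher, beside 12% of all genes. These levels were 13.7 against 3.06 CPM and 9.10 against 3.78 CPM, again from 2 to 6 cells with 5 reads in each group. Without the top cells Ccna2 differed by 0.60, within 2-fold, and Ccnf by 2.07.

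**Figure D5:**
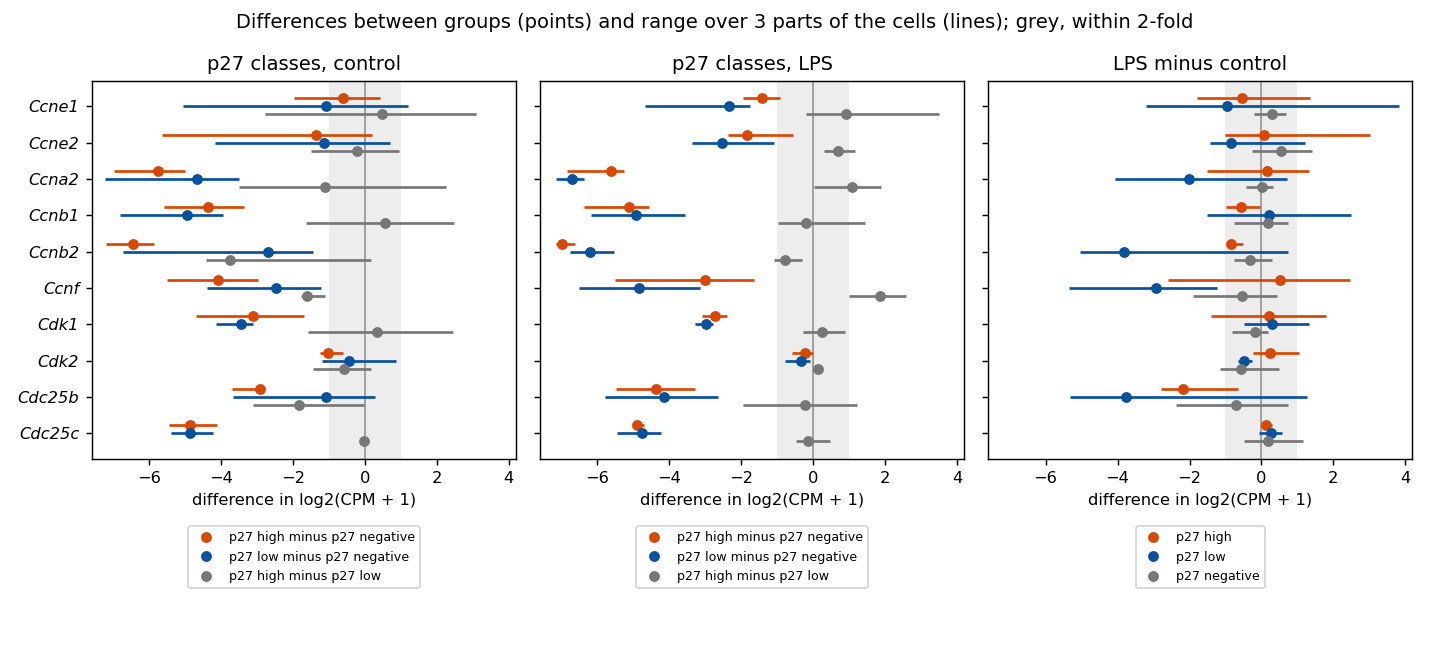
Difference in log2(CPM + 1) for each gene between p27 classes in control (left), between p27 classes under LPS (middle) and between LPS and control in each class (right). Points are group differences, lines the range over 3 parts of the cells by cell number, and the grey band is within 2-fold. Most points for comparisons with p27 negative cells lie left of the band, down to -6.98 for Ccnb2 under LPS, and most of those for LPS minus control lie within it.

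LPS and control cells of the same class were compared last. In p27 negative cells none of the 10 genes differed past 2-fold, with differences from -0.72 (Cdc25b) to 0.55 (Ccne2), beside a background of 10.2% lower and 6.22% higher. In p27 high cells Cdc25b alone was past 2-fold lower under LPS (-2.17; 9.58 against 1.35 CPM), beside 12% lower and 7.63% higher. In control p27 high cells 52.9% of its reads came from cell number 43, and without the top cells the difference was -1.74.

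In p27 low cells 4 genes were past 2-fold lower under LPS, Ccnb2 (-3.82), Cdc25b (-3.77), Ccnf (-2.93) and Ccna2 (-2.02), beside 16.6% lower and 7.89% higher. These are the 4 genes past 2-fold higher in control p27 low than in control p27 high cells, and both comparisons share the control p27 low cells. Without the top cells Ccna2 differed by -0.24, and Ccnb2, Cdc25b and Ccnf by -3.09, -4.28 and -3.16. In cells numbered 1 to 32 Ccna2, Ccnb2 and Cdc25b differed by 0.71, 0.73 and 1.26, in the other direction.

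The size of the LPS differences depends on the scale, as does the direction of many that were within 2-fold. ERCC spike-in RNA, which was added in the laboratory, made up 9.64%, 9.23% and 7.31% of gene and spike-in reads in control (p27 high, p27 low, p27 negative) but 3.76%, 4.01% and 2.19% under LPS. Scaled to spike-in reads, the median of all genes was higher under LPS by 1.303, 1.06 and 1.64 in the 3 p27 classes, in the same order. On that scale all 10 genes were past 2-fold higher in LPS p27 negative cells, with 82.9% of all genes (0.776% lower), and their median of 1.73 was close to the all-gene median. In p27 high and low cells 66.6% and 53.4% of all genes were then higher and 1.66% and 3.78% lower. Of the LPS differences named above, on the spike-in scale Cdc25b (-1.05 and -2.69 in p27 high and low cells), Ccnb2 (-2.63) and Ccnf (-1.79) stayed past 2-fold lower, and Ccna2 (-0.89) did not. The sources used here do not state the amount of spike-in added to a cell, and more RNA per cell and less spike-in cannot be told apart. TMM factors moved the median of all genes from -0.10, -0.17 and -0.13 to 0.03, -0.01 and -0.01 in the 3 classes and left 1, 4 and 0 of the 10 genes past 2-fold lower under LPS.

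Between p27 classes the spike-in scaling left each past 2-fold difference of the late genes from p27 negative cells in place. It moved the median of all genes to -0.36 and -0.29 for p27 high and low against negative in control, with 17.5% and 13.8% of all genes lower and 6.34% and 5.28% higher. Under LPS the medians were -0.72 and -0.86, with 32.5% and 39.9% lower and 4.37% and 2.31% higher. Ccne1 in control p27 high cells (-1.002) and Cdk2 in LPS p27 high (-1.03) and low cells (-1.25) were then past 2-fold lower too.

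The other genes of this machinery were taken from lists of 51 genes, of which 49 were measured. Between control p27 high and negative cells 23 of the 49 were past 2-fold lower and 4 higher, beside 8.47% and 12.5% of all genes, with a median of -0.85 against 0.05. The counts by list below are read against the same shares, and each list is small. Some of the 49, such as Foxm1, E2f2, E2f7 and Ube2c, were under 5 CPM in control p27 high cells. They passed the 5 CPM limit on the mean through other groups, so all counts over these lists are a description and not support. Both late cell cycle transcription factors were lower: Foxm1 at 0.92 against 114 CPM (-5.90) and Mybl2 at 11.01 against 44.6 CPM (-1.92). Of the 6 ubiquitin ligase genes 4 were lower, with Ube2c, the mitotic E2 enzyme of the anaphase-promoting complex, at 2.30 against 255 CPM (-6.28) and its activator Cdc20 at 13.1 against 296 CPM (-4.40). Of 6 mitotic entry genes 3 were lower, with Plk1 (10.5 against 143 CPM) and Aurka (13.4 against 165 CPM) in front.

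The E2F, RB and DREAM list had 5 of 15 lower and 2 higher (E2f5 and Rbl2). E2f2 stood at 0.28 against 24.4 CPM (-4.32) and E2f7 at 1.98 against 47.9 CPM (-4.04). The CKS subunits of CDKs, Cks2 (13.03 against 89.3 CPM) and Cks1b (56.4 against 267 CPM), were both lower, while Cdk7, Ccnh and Mnat1 of the CDK-activating kinase were not. Of 4 inhibitory and checkpoint kinases 3 were lower, with Chek1 at 12.6 against 40.7 CPM and Pkmyt1 at 41.4 against 109 CPM. Cdc25a, the third CDC25 phosphatase, was at 11.9 against 27.8 CPM (-1.16).

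D cyclins and their kinases gave counts near the shares over all genes, with a median of -0.23. None of the 5 was past 2-fold lower, and Ccnd2 was higher in p27 high cells (838 against 337 CPM, 1.31). Cdk6 was lower but within 2-fold, at 334 against 626 CPM (-0.90). Among 5 CDK inhibitor genes 3 were lower in p27 high cells, Cdkn1a (3.32 against 27.8 CPM, -2.74), Cdkn2c (10.2 against 58.3 CPM, -2.41) and Cdkn2d, and Cdkn1c was higher. The transcript of Cdkn1b, which encodes p27 itself, was at 74.6 against 81.9 CPM (-0.13).

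In the remaining comparisons, 18 of the 49 genes were lower and 2 higher in control p27 low against negative cells (8.33% and 10.1% of all genes). In LPS p27 high against negative cells the counts were 23 and 3 (7.32% and 11.8%), and in LPS p27 low against negative cells 25 and 1 (9.93% and 7.45%). Between p27 high and low cells 7 were lower and 4 higher in control (7.47% and 9.14%), and 2 and 8 under LPS (6.25% and 12%). LPS against control gave 7 lower and 5 higher in p27 high (12% and 7.63%), 14 and 6 in p27 low (16.6% and 7.89%), and 0 and 2 in p27 negative cells (10.2% and 6.22%). Both counts of LPS against control in p27 high cells, and of p27 high against low cells under LPS, are near the shares over all genes. So are the counts of genes higher in control p27 high against low cells and in LPS against control p27 negative cells. The 2 genes higher in LPS p27 negative cells were Cdkn1a (123 against 27.8 CPM, 2.11) and Ccnd2 (679 against 337 CPM, 1.01).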

How the data were processed

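RNA of single cells was measured as counts of reads per gene. The authors deposited 2 tables of raw counts, 288 cells in each, made with GSNAP, HTSeq 0.6.0 and mm10, per the submitters' processing notes. These notes state no annotation release, strand setting or read length. Per the labels' protocols, cells were sorted into plates with lysis buffer and Nextera XT libraries were made from amplified cDNA, with no molecular identifiers named, so reads are not molecules. Of all reads in the tables, 34.1% were assigned to genes and 63.8% to summary entries that name no gene, which were left out with the 92 spike-ins.

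Cells with at least 50000 gene reads were kept (52163 to 1942773 reads). Levels are CPM over summed reads with exact Poisson intervals, and shares of cells have exact binomial (Clopper-Pearson) 95% intervals. The former cover counting error only and the latter the drawing of cells only. Differences are of log2(CPM + 1), called past 2-fold among 11080 genes with a mean of at least 5 CPM. With 1 sample a group there were no tests. Symbols, coordinates and exon lengths came from GENCODE M21 (GRCm38) by gene ID, and promoters from RefSeq. Cells were thinned by drawing reads without replacement. TMM factors came from edgeR 4.0.16 and size factors from DESeq2 1.42.0 on the group sums, and the rest was done in Python 3.11.15. The fold step and the Poisson intervals were checked on simulated data, which checks the code only and does not bear on the differences found here.

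All 10 members are named, with the 3 genes of highest Spearman's rho among those read in at least 20% of control p27 negative cells, and up to 2 genes of each list with the largest difference between control p27 high and negative cells. Items withheld from the text are not reported here. Other genes named were chosen after their values were seen. The members and lists were chosen with earlier results of these data known. Alternatives were other scalings, pseudocounts, cell filters, equal weighting, leaving out top cells, and parts by cell number.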

Additional observations from a re-analysis of the deposited data

Results flagged for a closer look

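Reads of the 10 genes were present in cells left out for having under 50000 gene reads, which enter none of the comparisons. There were 81 such reads in the 12 control p27 high cells left out, 15 in 3 control p27 low cells, 5 in 1 control p27 negative cell, 28 in 6 LPS p27 low cells and 17 in 4 LPS p27 negative cells. Only totals above 3 reads are listed, and the 3 LPS p27 high cells left out held 3 such reads. In control p27 high cells 3 of the 12 had at least 5 reads of Ccna2 or Cdk2, and in LPS p27 low cells 2 of the 6 did. The left-out cells hold 382063 gene reads in the first group and 94436 in the other.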

How the results depend on the processing

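Of 47 differences past 2-fold, each under 14 alternatives (658 values), 646 kept their sign and 624 stayed past 2-fold. All 47 stayed past 2-fold under TMM factors, DESeq2 size factors, totals without mitochondrially encoded genes, 0.1 CPM added, all cells with a read, and cells with at most 10% mitochondrially encoded reads. The 12 that reversed were as follows, and the cause was not tested beyond the cells left out. In control p27 high against negative cells numbered 1 to 32, Ccne2 differed by 0.19. In control p27 low against negative cells, Ccne1 (1.18) and Ccne2 (0.69) reversed in cells numbered 33 to 64 and Cdc25b (0.27) in cells numbered 65 to 96. In control p27 high against low cells, Ccna2 reversed without the top cells (0.32), in cells numbered 1 to 32 (2.24) and in cells numbered 65 to 96 (0.58), and Ccnb2 in cells numbered 1 to 32 (0.17). In LPS against control p27 low cells, Ccna2 (0.71), Ccnb2 (0.73) and Cdc25b (1.26) reversed in cells numbered 1 to 32 and Ccna2 (0.053) in cells numbered 65 to 96.

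Counts of genes past 2-fold moved by over 1.5 times in 16 of 126 values, none of them in comparisons with p27 negative cells within a treatment. For control p27 high against low cells the count of 4 became 1 with cells weighted equally and 8 in cells numbered 33 to 64. For LPS p27 high against low cells the count of 2 became 1 with 5 CPM added, and 5 and 4 in cells numbered 1 to 32 and 33 to 64. For LPS against control in p27 high cells the count of 1 became 6 by spike-in scaling, 2 in cells with at least 200000 gene reads, 2 with 0.1 CPM added, and 5, 5 and 4 in the 3 parts. Directions were mixed there: 1 lower and 5 higher by spike-in scaling (66.6% of all genes higher), and 5 lower, then 1 lower and 4 higher, then 1 lower and 3 higher in the parts. In p27 low cells the count of 4 became 7 in cells numbered 33 to 64, and in p27 negative cells the count of 0 became 10 by spike-in scaling and 1, 2 and 2 in the parts. The share of cells with all 4 of Ccna2, Ccnb1, Ccnb2 and Cdk1 became 7.14%, 6.45% and 56.8% in control and 4.30%, 6.67% and 64.1% under LPS when 1 read sufficed. No paired analysis was possible because no result comes from a test. In parts by cell number 12.97% to 24.6% of all genes were past 2-fold lower and 10.6% to 19.9% higher, so the counts in parts stand beside a larger background. Depth limits shares of cells, and 1 sample a group limits every comparison.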
